A study of Mus musculus with 16 samples.

Results

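The aquaporins are a family of membrane channels for water, and some members also pass glycerol or other small solutes. The 8 genes examined were chosen by name as the aquaporins of the kidney: Aqp1, Aqp2, Aqp3, Aqp4, Aqp6, Aqp7, Aqp8 and Aqp11. They are 8 of 28971 genes counted in whole mouse kidneys that lost Hes1 in the tubule epithelium (Hes1 cKO) and in control littermates. By the cell that holds most of the product they were read in 3 classes, set from general knowledge: principal cells of the collecting duct (Aqp2, Aqp3, Aqp4), intercalated cells of the collecting duct (Aqp6) and proximal tubule (Aqp1, Aqp7, Aqp11). Aqp8 was put in no class.

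The Hes1 cKO animals carried Pax8-rtTA, TRE->Cre and Hes1 f/f, and the control animals were labelled wild type littermates, with no further alleles named. Pax8-rtTA is active along the renal tubule, so Cre acts there in the presence of doxycycline and is not restricted to the collecting duct. Both groups received doxycycline (1 mg/mL, with 5% sucrose, in drinking water) for 1 week from 3 weeks of age. The 7 libraries used were 3 Hes1 cKO and 4 control, numbered only to name them. Their columns carry a genotype but not the title of a sample, so the labels tie the sex of no animal to a library. The series asked how Hes1, a repressor downstream of Notch receptors, shapes the cell types of the collecting duct.

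Total counts ranged from 16973931 to 20420422 per library. Hes1 was at 17.2 to 19.8 CPM (reads scaled to the size of the library) in Hes1 cKO and at 42.8 to 67.6 CPM in control. Xist, which is transcribed from an inactive X chromosome, was high (333 to 367 CPM) in Hes1 cKO 3, control 3 and control 4, and it did not exceed 0.371 CPM elsewhere. Kidney markers were abundant, among them Umod of the thick ascending limb (2622 to 3394 CPM) and Slc34a1 of the proximal tubule (3739 to 5454 CPM).

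Water reabsorption along the nephron rests on these channels. Aqp1 makes the proximal tubule and the thin descending limb permeable to water at all times. In principal cells, vasopressin acts through cAMP to bring Aqp2 to the luminal membrane and to raise its transcription, and water leaves on the other side through Aqp3 and Aqp4. Aqp6 lies in vesicles inside acid-secreting intercalated cells and also passes anions. Aqp7 carries glycerol and water in the last part of the proximal tubule, and Aqp11 lies in the endoplasmic reticulum of proximal cells.

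Aqp2 and Aqp6 are near neighbours in the genome with Aqp5 between them, on the same strand. By GENCODE M21 on GRCm38 the genes lie at chr15:99579055-99584547 (Aqp2), chr15:99590782-99594829 (Aqp5) and chr15:99601400-99605477 (Aqp6), within 26.4 kb. The gaps are 6.24 kb from Aqp2 to Aqp5 and 6.57 kb from Aqp5 to Aqp6. No other annotated gene overlaps any of the 3. The sequences before the starts of Aqp2 and Aqp6 are shown because these neighbours had means on opposite sides of control. That of Aqp3 is shown because its lowest and highest library in each group were those of Aqp2. Each is the 250 bases before the RefSeq start (GRCm38.p6), 5′ to 3′ on the gene's strand, at chr15:99578806-99579055 (plus strand, Aqp2), chr15:99600950-99601199 (plus strand, Aqp6) and chr4:41098184-41098433 (minus strand, Aqp3). Capitals mark matches, on either strand, to any of 6 motifs. The core of a cAMP response element was searched as TGACG, and the full element, which contains it, as TGACGTCA. A GATA site was searched as AGATAA. An E-box was searched as CACGTG and the core of forkhead sites as TAAACA. The form of the N-box that Hes proteins bind was searched as CACNAG.
Aqp2: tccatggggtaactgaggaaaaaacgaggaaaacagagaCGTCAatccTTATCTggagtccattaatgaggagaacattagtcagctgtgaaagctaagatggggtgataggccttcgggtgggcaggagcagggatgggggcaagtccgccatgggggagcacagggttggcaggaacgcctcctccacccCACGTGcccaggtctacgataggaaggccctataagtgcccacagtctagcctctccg
Aqp6: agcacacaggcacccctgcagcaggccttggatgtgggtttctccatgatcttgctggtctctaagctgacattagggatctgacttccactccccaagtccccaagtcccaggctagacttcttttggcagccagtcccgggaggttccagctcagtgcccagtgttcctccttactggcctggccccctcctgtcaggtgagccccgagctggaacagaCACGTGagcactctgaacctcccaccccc
Aqp3: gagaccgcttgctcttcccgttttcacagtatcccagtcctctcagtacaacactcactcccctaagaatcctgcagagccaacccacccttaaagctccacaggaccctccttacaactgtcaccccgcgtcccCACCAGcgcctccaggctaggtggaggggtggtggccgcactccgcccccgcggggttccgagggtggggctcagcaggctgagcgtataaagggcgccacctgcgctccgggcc

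In these windows, Aqp2 held the cAMP element core at 211, the GATA site at 202 and the E-box at 58 bases before the start, counted to the left end of each match. Aqp6 held the E-box at 29 bases before the RefSeq start and no match to the 5 other motifs. The Aqp6 window ends at 99601199, upstream of the start of Aqp6 in GENCODE (99601400), so the E-box lies farther from the GENCODE start. Aqp3 held the N-box form at 115 bases before the start and no match to the others. Among 32841 promoter windows of the same length, 17.8% held the cAMP element core, 9.99% the GATA site, 6.02% the E-box, 12.0% the forkhead core and 36.7% the N-box form, on either strand. The full cAMP element was in none of the aquaporin windows searched and in 1.55% of all windows. The E-box was also in the windows of Aqp8, at 75 bases, and Aqp5, at 87 bases before the RefSeq start. That start lies inside Aqp5 as GENCODE has it, and 246 of the 250 bases of the Aqp5 window are annotated as exon. The N-box form was also in the windows of Aqp7, Aqp8 and Aqp11. These are matches of letters, and no binding was measured.

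Across the family, the means lay on both sides of control. The 3 principal cell members had lower means in Hes1 cKO, with log2 fold changes of -0.78, -0.53 and -0.32. Aqp6 had a higher mean (0.68), and the 3 proximal members lay within -0.10 and 0.09. The median log2 fold change of the 7 tested members was -0.10, against -0.0064 over all 15615 tested genes.

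None of the 7 tested members passed the quasi-likelihood test of edgeR at a Benjamini-Hochberg adjusted p of 0.05 over all genes, which 0.339% of all tested genes passed (called, below). At an unadjusted p under 0.05 there were 3 of 7 (Aqp2, Aqp3 and Aqp6), against 5.95% of all genes. DESeq2's Wald test called the same 3, against 0.833% of all genes, and limma-voom called 0 of 7. The groups did not overlap for Aqp6 (higher, as for 3.71% of all genes) and for Aqp3 (lower, as for 3.29%). In whole-kidney RNA, fewer cells of a type and less RNA per cell cannot be told apart.

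**Figure D1:**
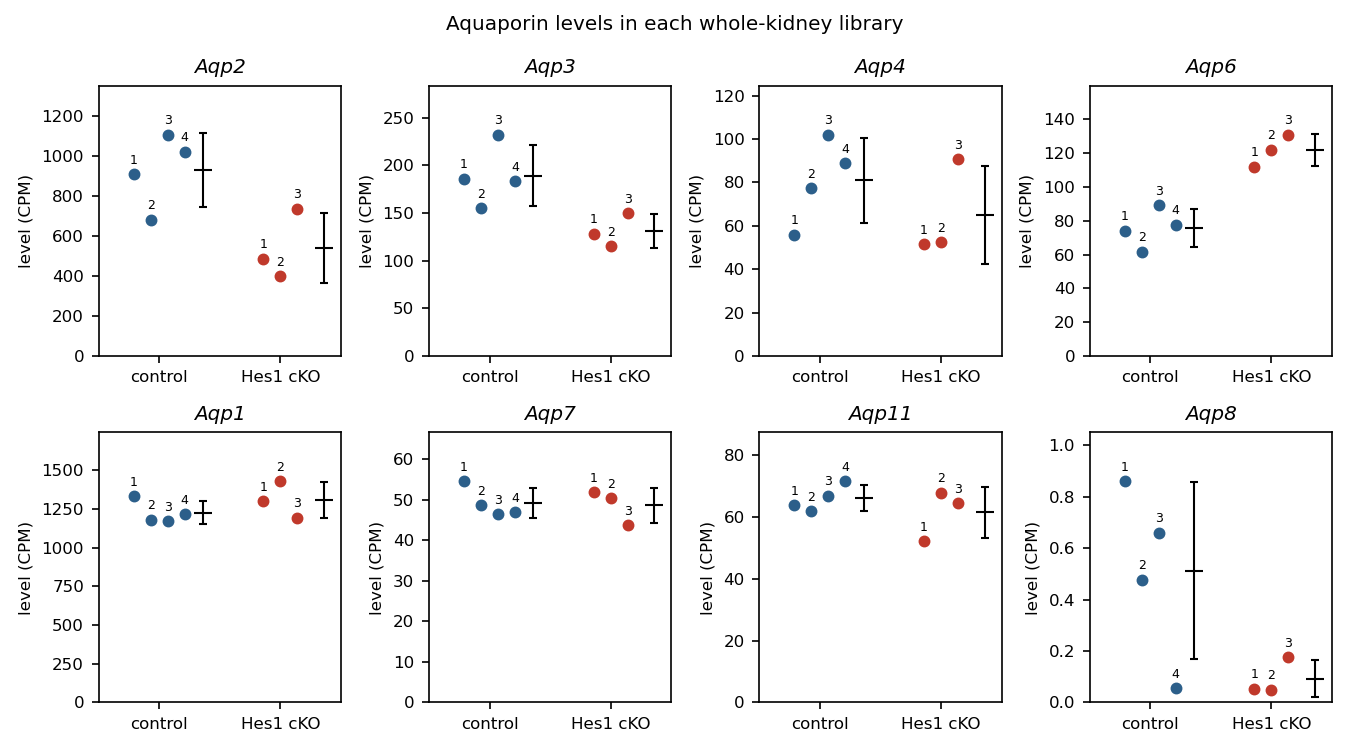
Level (CPM, linear axes from 0) of each of the 8 aquaporins in the 4 control (blue) and 3 Hes1 cKO (red) libraries, with library numbers; bars give mean ± SD. Aqp6 sits at 112 to 131 CPM in Hes1 cKO, above all controls (61.7 to 89.1), while Aqp2 and Aqp3 have lower means in Hes1 cKO and Aqp1, Aqp7 and Aqp11 overlap between groups.

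Aqp2, the vasopressin-regulated water channel, was the most abundant principal cell member. It was at 486, 399 and 737 CPM in Hes1 cKO 1, 2 and 3 and at 909, 682, 1107 and 1021 CPM in control 1, 2, 3 and 4. The 2 lowest libraries were Hes1 cKO 2 and Hes1 cKO 1, and the groups overlapped only because Hes1 cKO 3 lay above control 2. Hes1 cKO 3 had high Xist (342 CPM), while control 2 had low Xist (0.371 CPM). In each group the libraries with high Xist were the highest for Aqp2. In a fit of genotype and Xist, the Xist term was not called for Aqp2 (edgeR adjusted p 0.114). The means were 541 ± 175 CPM (SD, n = 3) and 929.7 ± 184 CPM (SD, n = 4), so that control was 1.72-fold higher. The log2 fold change was -0.78 (SE 0.22), with an edgeR adjusted p of 0.512 and an exact two-sided permutation p of 0.0857, where 35 splits allow no less than 0.0286. DESeq2 gave an adjusted p of 0.0171 and edgeR without the low-count filter 0.0356. Aqp2 was therefore called by these 2 fits and not by the others run.

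Aqp3, the channel for water and glycerol on the blood side of principal cells, lies at chr4:41092722-41098183, 44.6 kb from Aqp7. It was at 128, 115 and 149.6 CPM in Hes1 cKO 1, 2 and 3 and at 186, 155, 232 and 183 CPM in control 1, 2, 3 and 4. Every Hes1 cKO library lay below every control library, by a narrow margin between Hes1 cKO 3 and control 2. As for Aqp2, Hes1 cKO 2 and control 2 were the lowest of their groups, and Hes1 cKO 3 and control 3 the highest. The numbers pair no libraries, and Hes1 cKO 3 and control 3 both had high Xist (342 and 333 CPM). The means were 131 ± 17.6 CPM (SD, n = 3) and 189 ± 32.1 CPM (SD, n = 4). The log2 fold change was -0.53 (SE 0.14), not called by edgeR (adjusted p 0.477) and called by DESeq2 (0.0400). The exact permutation p was 0.0571.

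Aqp4, the other blood-side water channel of principal cells and one also made in the late proximal tubule of mice, had the smallest difference between genotypes of the 3. It was at 51.6, 52.4 and 90.8 CPM in Hes1 cKO 1, 2 and 3 and at 55.9, 77.2, 102 and 88.9 CPM in control 1, 2, 3 and 4. The 3 libraries with high Xist (Hes1 cKO 3, control 3 and control 4) were the 3 highest, whatever their genotype. For genotype the log2 fold change was -0.32 (SE 0.24), with overlapping groups and an edgeR adjusted p of 0.942. It was -0.24 with Xist as a covariate, and -0.64 without Hes1 cKO 3 (edgeR adjusted p 0.550). In the fit with both terms, the Xist term itself was called for Aqp4 (edgeR adjusted p 0.0397), as for 1.34% of all tested genes, and for no other tested member. This term was read after the pattern had been seen. A gene annotated on the opposite strand overlaps Aqp4 but shares none of its exon bases.

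Aqp6, the intercalated cell member, had the largest value above control of the 7 tested. It was at 112, 122 and 131 CPM in Hes1 cKO 1, 2 and 3 and at 74.2, 61.7, 89.1 and 77.8 CPM in control 1, 2, 3 and 4. All 3 Hes1 cKO libraries lay above all 4 controls. The means were 122 ± 9.34 CPM (SD, n = 3) and 75.7 ± 11.3 CPM (SD, n = 4), a ratio of 1.61. The log2 fold change was 0.68 (SE 0.12), with an edgeR adjusted p of 0.0734 and rank 59 among all tested genes by p. Its exact permutation p was 0.0286, the least that 35 splits can give. It was called by edgeR with Xist as a covariate (adjusted p 0.0143, where 0.423% of all genes were called) and without the low-count filter (0.00303, where 0.352% were called). It was also called without control 3 (edgeR adjusted p 0.0444) and by DESeq2 (7.73e-05). The adjusted p thus fell on both sides of 0.05, while the log2 fold change stayed between 0.60 and 0.77 over 14 alternatives.

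Within a library the read counts of 2 genes can be set against each other with no scaling between libraries. There were 12.2, 11.0, 12.4 and 13.1 Aqp2 reads per Aqp6 read in control 1, 2, 3 and 4, and 4.34, 3.27 and 5.63 in Hes1 cKO 1, 2 and 3. The lowest control ratio thus lay well above the highest Hes1 cKO ratio. For Aqp3 the ratio to Aqp6 was 2.49 ± 0.107 (SD, n = 4) in control and 1.07 ± 0.115 (SD, n = 3) in Hes1 cKO, a small spread within each group beside the distance between them. For Aqp4 it was 1.07 ± 0.219 in control and 0.528 ± 0.145 in Hes1 cKO, and the groups again did not overlap (0.753 to 1.25 against 0.429 to 0.693). Among principal cell members the ratios overlapped between the groups: Aqp2 to Aqp3 was 4.91 ± 0.499 in control and 4.07 ± 0.758 in Hes1 cKO. Aqp6 is the denominator of the ratios that separated the groups, and its own groups did not overlap. Read counts of Aqp1, Aqp7 and Aqp11 over those of Aqp6 also separated the groups. The separation is therefore not particular to principal cell members. These ratios are descriptions of chosen genes and carry no test.

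**Figure D2:**
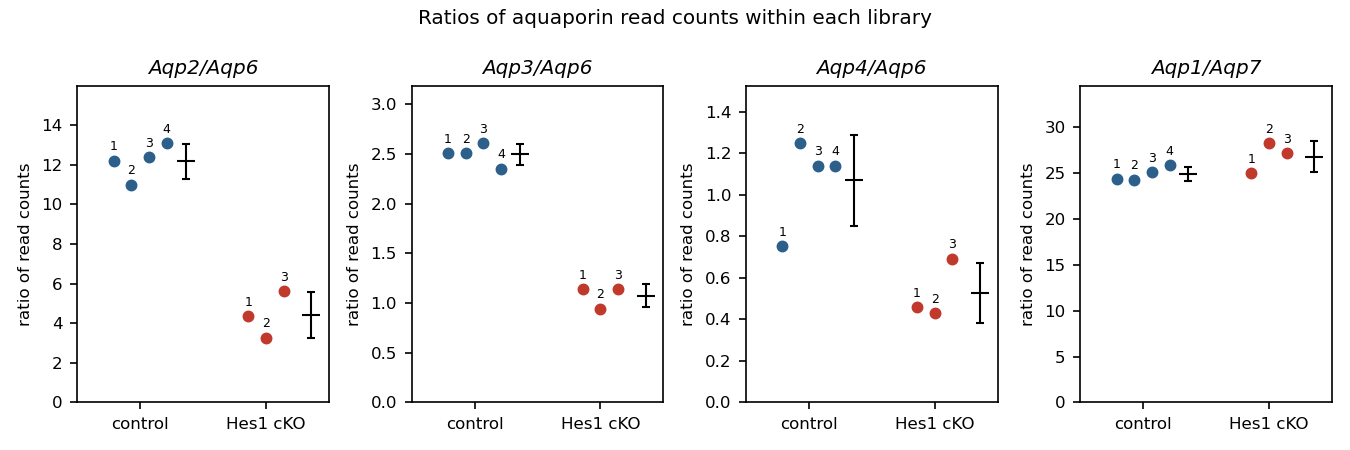
Ratio of read counts of 2 aquaporins within each library (linear axes from 0), control in blue and Hes1 cKO in red, with library numbers; bars give mean ± SD. The 3 ratios over Aqp6 separate the groups, from 11.0 to 13.1 against 3.27 to 5.63 for Aqp2. Aqp6 alone also separates the groups, so this is not particular to principal cell members. Aqp1 to Aqp7, which leaves Aqp6 out, overlaps (24.3 to 25.9 against 25.0 to 28.3).

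The proximal members overlapped between the groups. Aqp1 was at 1298, 1429 and 1194 CPM in Hes1 cKO 1, 2 and 3 and at 1332, 1181, 1169 and 1215 CPM in control 1, 2, 3 and 4. The groups overlapped (log2 fold change 0.09, SE 0.10, edgeR adjusted p 0.974). Aqp1 lies at chr6:55336432-55348555 and is also made in thin descending limbs, the endothelium of the vasa recta and red blood cells.

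Aqp7 was at 51.9, 50.4 and 43.8 CPM in Hes1 cKO 1, 2 and 3 and at 54.6, 48.7, 46.5 and 46.9 CPM in control 1, 2, 3 and 4. Libraries of both groups were interleaved (log2 fold change -0.01, SE 0.09, edgeR adjusted p 0.996), and the 3 with high Xist were the 3 lowest. Aqp7 lies at chr4:41033074-41048139.

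Aqp11, an intracellular member whose loss is known to cause cysts in proximal tubules, was at 52.1, 67.8 and 64.4 CPM in Hes1 cKO 1, 2 and 3. The controls were at 63.7, 61.8, 66.8 and 71.5 CPM. Hes1 cKO 1 was the lowest library and the other 2 lay among the controls. Its log2 fold change of -0.10 (SE 0.10) had an edgeR adjusted p of 0.974 and was 0.00 without Hes1 cKO 1. Aqp11 lies at chr7:97724006-97738289.

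Aqp8, a water channel known mainly from the gut, pancreas and liver, did not pass the filter on low counts and was not tested. It had 1, 1 and 3 reads in Hes1 cKO 1, 2 and 3 and 15, 9, 12 and 1 reads in control 1, 2, 3 and 4. Controls 1, 2 and 3 were above all Hes1 cKO libraries, while control 4 was level with the lowest of them. The exact permutation p on log2(CPM + 1) was 0.0857. At 0.860 CPM or less in every library, its counting error is large. It lies at chr7:123462291-123468004.

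Of the aquaporins outside the 8, Aqp5 had enough reads for a test, while Mip had 2 to 7 reads per library and Aqp9 had 0 to 2. Aqp5, the water channel of salivary and sweat glands and of the lung, had 28, 13 and 23 reads in Hes1 cKO 1, 2 and 3 and 70, 112, 64 and 44 reads in control 1, 2, 3 and 4. Every Hes1 cKO library lay below every control, as for 3.29% of all genes. The means were 1.16 ± 0.452 CPM (SD, n = 3) and 3.97 ± 1.47 CPM (SD, n = 4), so that control was 3.42-fold higher, the largest ratio among the tested aquaporins. The log2 fold change was -1.78 (SE 0.39), not called by edgeR (adjusted p 0.195) and called by DESeq2 (0.00140) and without the low-count filter (edgeR adjusted p 0.0128). Here too the exact permutation p was 0.0286.

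The 3 neighbouring genes therefore gave unlike values over 26.4 kb: log2 fold changes of -0.78 for Aqp2, -1.78 for Aqp5 and 0.68 for Aqp6. The protein-coding genes on either side overlapped between the groups. Faim2, an inhibitor of cell death, was at 0.0989 to 2.29 CPM in Hes1 cKO and 0.477 to 1.84 CPM in control (edgeR adjusted p 0.996). Racgap1, a regulator of cell division, was at 4.59 to 7.51 CPM against 3.76 to 6.31 CPM (edgeR adjusted p 0.942).

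**Figure D3:**
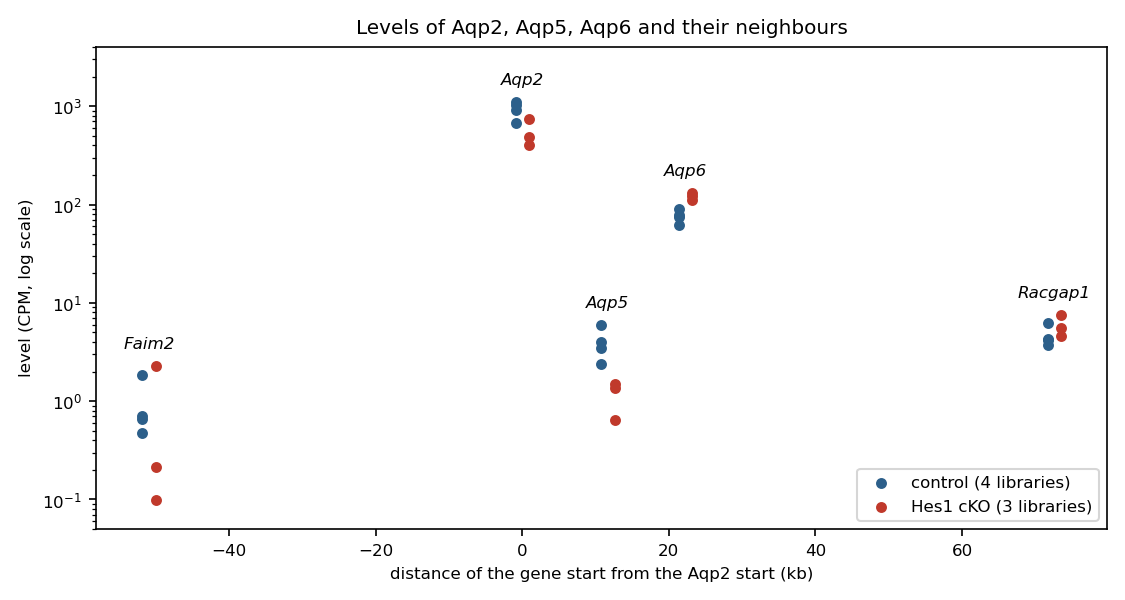
Level (CPM, log scale) in each library of Aqp2, Aqp5, Aqp6 and the nearest protein-coding genes on either side, by distance of the gene start from the Aqp2 start (kb); control in blue, Hes1 cKO in red. The groups separate at Aqp5 (0.643 to 1.48 against 2.40 to 5.93 CPM) and, in the other direction, at Aqp6.

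To compare levels between genes, counts were divided by gene length and scaled to the same total in every library (TPM, a level per length). In control the order was Aqp2 (1965 ± 412 TPM, SD, n = 4), Aqp1 (1395 ± 90.6), Aqp3 (309 ± 52.6), Aqp6 (93.6 ± 14.7), Aqp7 (52.0 ± 3.59), Aqp4 (38.9 ± 9.61), Aqp11 (19.3 to 23.6), Aqp5 (4.54 ± 1.60) and Aqp8 (0.960 ± 0.641). The ranges of Aqp2 (1410.3 to 2314 TPM) and Aqp1 (1319.9 to 1502) overlapped in control. Neighbours from Aqp1 down to Aqp5 did not overlap within control, with the smallest gap between Aqp7 (48.8 to 57.1) and Aqp4 (26.6 to 48.3).

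In Hes1 cKO the order among the 8 was the same except at the top. Aqp1 (1512 ± 123 TPM, SD, n = 3) came before Aqp2 (1161 ± 375), with overlapping ranges, followed by Aqp3 (218 ± 31.0) and Aqp6 (153 ± 9.12). Aqp2 exceeded Aqp1 in 4 of 4 control libraries and in 1 of 3 Hes1 cKO libraries (Hes1 cKO 3). Of the summed TPM of the aquaporins, Aqp6 took 2.41% ± 0.112 (SD, n = 4) in control and 4.86% ± 0.277 (SD, n = 3) in Hes1 cKO. Aqp2 took 50.2% ± 4.56 in control and 36.3% ± 8.27 in Hes1 cKO. As shares of 1 sum, these values move together: a lower share of Aqp2 raises the others.

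**Figure D4:**
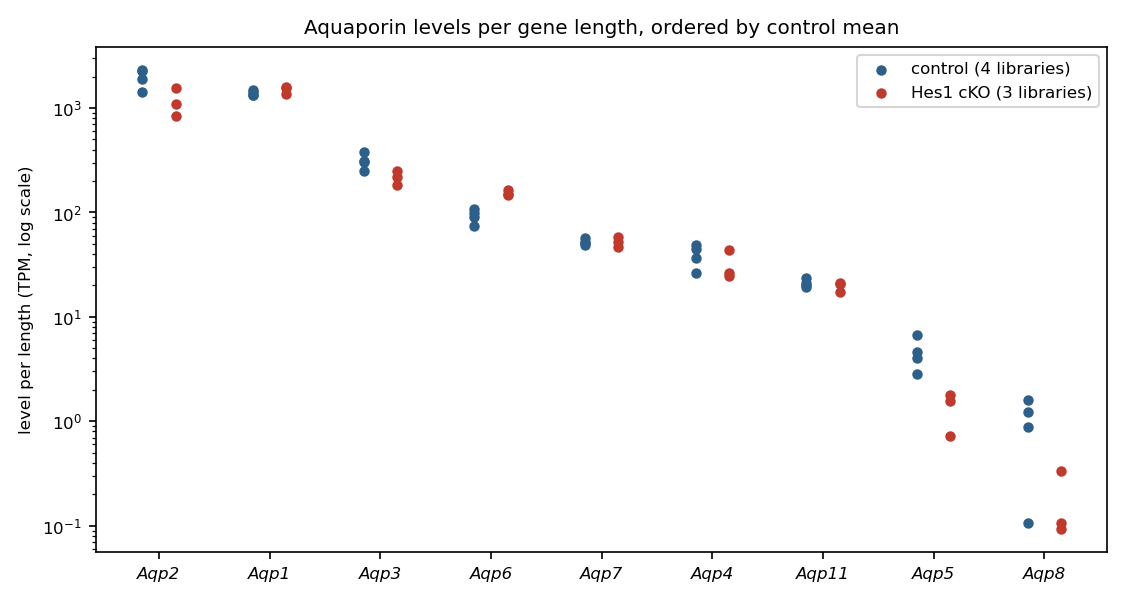
Level per length (TPM, log scale) of 9 aquaporins in each control (blue) and Hes1 cKO (red) library, ordered by the control mean. Aqp2 and Aqp1 are the most abundant, and Aqp8 lies at 1.61 TPM or less in every library.

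The marker genes of the cells that make these channels were read beside them. Of 12 principal cell markers other than aquaporins, 11 were tested and 8 had lower values in Hes1 cKO, and their median log2 fold change was -0.18. The 1 called gene was Hsd11b2, the enzyme that inactivates corticosterone, which fell by 1.12 on the log2 scale (edgeR adjusted p 0.0104), where 0.0192% of all genes were called lower. Without Hes1 cKO 1 or Hes1 cKO 2, 0 of the list were called. Fxyd4, a regulator of the sodium pump, was at 12.9 to 19.2 CPM against 19.8 to 29.2 CPM (log2 fold change -0.67, edgeR adjusted p 0.435, DESeq2 0.0363). DESeq2 called 2 genes of the list, Hsd11b2 and Fxyd4, against 0.833% of all genes. An unadjusted edgeR p under 0.05 was found for 4 of the 11 tested, against 5.95% of all genes. The summed level of the list was 982 to 1209 CPM in Hes1 cKO and 1181 to 1572 CPM in control. The list was not lower as a block: Scnn1a, a subunit of the sodium channel of the same cells, was at 234 to 251 CPM in Hes1 cKO and 176 to 251 CPM in control. Control libraries had 4.05 ± 0.571 (SD, n = 4) Aqp2 reads per Hsd11b2 read and Hes1 cKO libraries 5.05 ± 1.20 (SD, n = 3), with overlap.

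Of 18 intercalated cell markers other than Aqp6, 17 were tested, 14 had higher values, and 10 were called higher, against 0.320% of all genes (6 without Hes1 cKO 2). The list was chosen with its result in these data known, so its direction is no independent evidence. Their summed level was 3129 to 3266 CPM in Hes1 cKO and 2052 to 2261 CPM in control. The called genes were the transcription factors Foxi1 and Hmx2, the proton pump subunits Atp6v1b1, Atp6v1g3, Atp6v0d2 and Atp6v1c2, the exchangers Slc4a9 and Slc26a4, and the receptors Kit and Insrr. They had log2 fold changes of 0.73 (Atp6v1b1) to 2.44 (Hmx2). The value of Aqp6, 0.68, was below all 10, and above that of Slc4a1, the anion exchanger of acid-secreting cells (0.41, edgeR adjusted p 0.718). The list did not rise as a block: Rhbg (-0.47), Rhcg (-0.18) and Car2 (-0.17) had lower values in Hes1 cKO, and none of these was called. Aqp6 reads per Foxi1 read were 2.38 ± 0.574 (SD, n = 4) in control and 1.03 ± 0.187 (SD, n = 3) in Hes1 cKO, with no overlap. The list was not divided by type of intercalated cell, while Aqp6 lies in the acid-secreting type. How far the level of the channel genes followed these markers was not tested.

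Vasopressin signalling, the pathway that controls Aqp2, was read through 25 genes from receptor to transcription factor, of which 24 were tested. None was called by edgeR, with 1 at an unadjusted p under 0.05, against 5.95% of all genes. DESeq2 and edgeR without the low-count filter each called 1, against 0.833% and 0.352% of all genes. The median log2 fold change was 0.07. The gene called by DESeq2 was Avpr1a, a vasopressin receptor found on intercalated cells, at 22.1 to 28.2 CPM in Hes1 cKO against 11.6 to 17.2 CPM in control. Its groups did not overlap (log2 fold change 0.70, SE 0.16, edgeR adjusted p 0.219, DESeq2 0.00682). Avpr2, the receptor that governs Aqp2 in principal cells, was at 0.318 CPM or less in every library, and 2347 of its 2886 annotated exon bases are shared with other genes. It was not tested. Adcy6, the main adenylyl cyclase of this pathway, was at 205 to 224 CPM in Hes1 cKO and 176 to 224 CPM in control. The transcription factors of the list all had log2 fold changes above 0: Grhl2 (0.36), Elf5 (0.31), Gata2 (0.21), Gata3 (0.19), Creb1 (0.13), Nfat5 (0.12) and Elf3 (0.05). None of them was called by edgeR or DESeq2. Among them, only Gata2 had groups that did not overlap, higher in Hes1 cKO, as for 3.71% of all genes.

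The genes that move Aqp2 vesicles numbered 23, with 0 called by edgeR or DESeq2 and a median log2 fold change of -0.02. At an unadjusted edgeR p under 0.05 there were 2, against 5.95% of all genes. These 2 were Hspa8, a chaperone that binds Aqp2 (-0.39, edgeR adjusted p 0.734), and Nedd4l, a ubiquitin ligase (0.23, edgeR adjusted p 0.734). Of 13 genes of urine concentration, none was called by edgeR or DESeq2. In this list 1 gene had an unadjusted edgeR p under 0.05, against 5.95% of all genes. The spread within groups was wide for Slc6a12, a betaine transporter raised by high salt in the medulla, at 1.58 to 12.2 CPM in Hes1 cKO and 7.78 to 20.2 CPM in control. Akr1b3, aldose reductase, which makes sorbitol in the medulla, was at 72.3, 58.7 and 146 CPM in Hes1 cKO 1, 2 and 3 and at 146, 89.9, 152 and 180.3 CPM in control 1, 2, 3 and 4. Its lowest library in each group, and its highest in Hes1 cKO, were those of Aqp2 and Aqp3. Whether the share of medulla in the tissue differed between libraries was not tested.

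**Figure D5:**
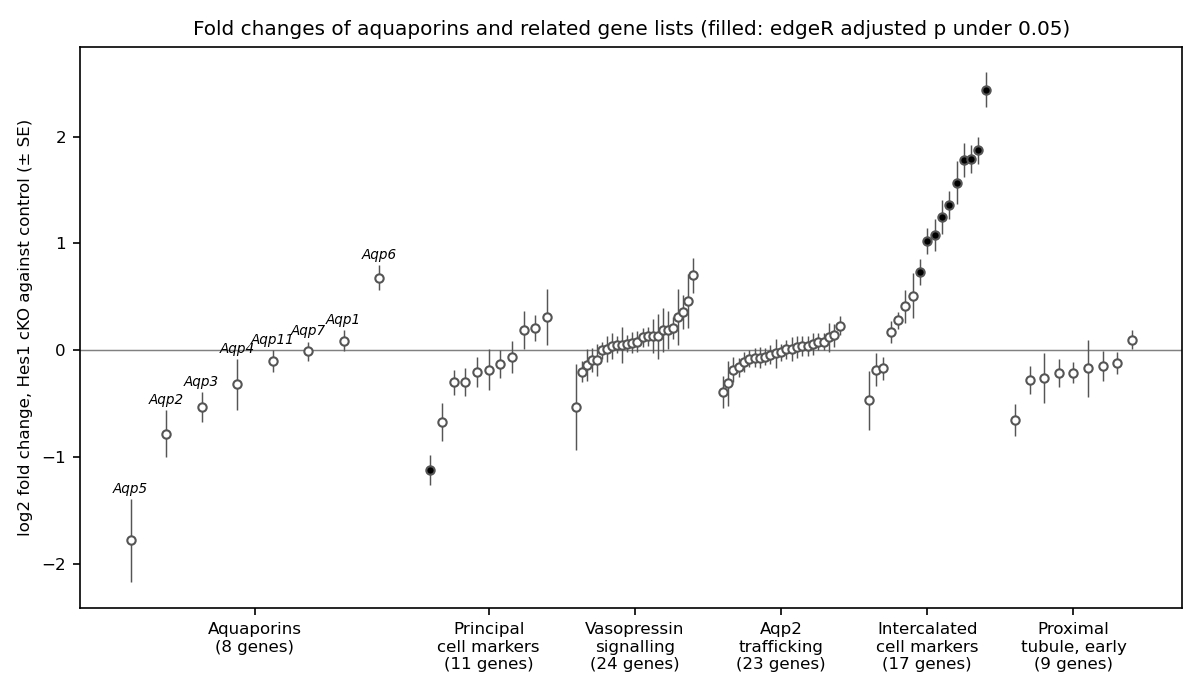
Log2 fold change of Hes1 cKO against control (± SE) of 8 tested aquaporins, Aqp5 included, and of the tested genes of 5 lists; each point is a gene, and filled points passed edgeR's adjusted p under 0.05. The aquaporins run from -1.78 (Aqp5) to 0.68 (Aqp6) with none filled, while 10 intercalated cell markers and 1 principal cell marker are filled.

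The markers of the proximal tubule were read in 2 lists. Of 9 genes of the early proximal tubule, 8 had lower values in Hes1 cKO, and their summed level was 9017 to 10055 CPM in Hes1 cKO and 10343 to 12673 CPM in control. None was called by edgeR, with 1 at an unadjusted p under 0.05, against 5.95% of all genes. This was Gatm, the first enzyme of creatine synthesis (log2 fold change -0.65, edgeR adjusted p 0.232). Gatm was called by DESeq2 (adjusted p 0.00174, against 0.833% of all genes) and by edgeR with the Xist covariate (0.0335, against 0.423%). Without the low-count filter edgeR called 1 gene of the list, against 0.352% of all genes, and without Hes1 cKO 3 it called 1. Of 8 genes of the late proximal tubule, none was called by edgeR or DESeq2, and none had an unadjusted p under 0.05. With the Xist covariate edgeR called 1 of them, Slc7a13, an amino acid transporter, whose log2 fold change went from -0.33 (edgeR adjusted p 0.992) to -0.74 (0.0179). Their summed level overlapped, at 2387 to 3241 CPM in Hes1 cKO and 1666 to 4187 CPM in control. The largest log2 fold change in it was that of Cyp7b1, a sterol hydroxylase (-1.06, edgeR adjusted p 0.945), at 17.1 CPM in control 1 and 1.36 to 3.56 CPM in the other 6 libraries.

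Other cells that make the same channels were also read. The summed red cell markers, which bear on Aqp1, were at 464 to 745 CPM in Hes1 cKO and 403 to 1646 CPM in control, with the highest value in control 2, where Aqp1 (1181 CPM) was among the lowest. The largest log2 fold change among them was that of the globin gene Hbb-bt, at 11.6 to 17.9 CPM in Hes1 cKO and 7.42 to 48.1 CPM in control (edgeR adjusted p 0.882). The red cell list also holds Slc4a1, which is among the intercalated cell markers too. Of the endothelial markers, 8 of 8 had values below control (median log2 fold change -0.11), and none was called by edgeR or DESeq2. An unadjusted edgeR p under 0.05 was found for 1 of these 8, against 5.95% of all genes. Their sums overlapped (297 to 489.8 against 394 to 481 CPM). The summed thin limb markers overlapped too (231 to 377 against 285 to 459.5 CPM), and 0 of 6 were called by edgeR. DESeq2 called 1 (against 0.833% of all genes), as did edgeR without the low-count filter (against 0.352%). Adipocytes, a known site of Aqp7, were marked by 7 tested genes, all 7 with values above control and 2 of them with no overlap between the groups, where 3.71% of all genes lay so. None was called by edgeR or DESeq2 and none had an unadjusted p under 0.05; their median log2 fold change was 0.16, and they had sums of 153 to 171 CPM in Hes1 cKO and 124 to 162 CPM in control. The largest log2 fold change among them was that of Cidec, a lipid droplet protein (0.30, edgeR adjusted p 0.885). The defining adipocyte gene Adipoq was at 17.1 to 28.5 CPM, with reads in every library.

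The genes with the pattern most like each channel were found by Pearson's r of log2(CPM + 1) over the 7 libraries, among 9750 genes with a mean of at least 10 CPM. The libraries fall in 2 groups, so r measures likeness only and has no test. For Aqp2 the nearest were Aldoc (r = 0.979), an aldolase, Tpp1 (0.972), a lysosomal protease, Gatm (0.972), Slc7a8 (0.967), an amino acid transporter, and Top3b (0.965), a topoisomerase. None of these 5 was a principal cell marker of the list. For Aqp6 they were Dlg5 (0.973), Lmcd1 (0.972), Bmf (0.968), Bcl2l1 (0.968) and Kit (0.957). Kit is in the intercalated cell list, and Bmf and Bcl2l1 encode regulators of cell death. For Aqp7 they were Ppp4r1 (0.989), B4galt3 (0.987), Tcf25 (0.984), Gm4202 (0.981) and Amdhd2 (0.975), all with log2 fold changes between -0.06 and 0.02.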

How the data were processed

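Total RNA of whole mouse kidneys was sequenced as 150 bp pairs, per the labels' protocols. The authors deposited raw read counts per gene in 2 tables. FastQC, STAR and DESeq2 and the genome build GRCm38 (mm10) are named in the submitters' processing notes; the method of counting, its annotation and its strand setting were not given in the sources used here. The titles name 7 Hes1 cKO and 9 control kidneys, while the series text gives these sizes the other way round. The table used has 3 columns that name a mutant and 4 that name a wild type. The other 9 columns of per-sample values show no genotype and were not used.

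The low-count filter was edgeR's filterByExpr (edgeR 4.0.16 in R 4.3.3, with a minimum count of 10), leaving 15615 of 28971 genes; 7 of the 8 members passed. Libraries were scaled by TMM and compared by the quasi-likelihood test of edgeR without covariates. Benjamini-Hochberg adjustment ran over every tested gene, and an adjusted p under 0.05 was a call. The test was tried on simulated counts first. Nothing says that libraries came from separate litters, so p-values measure the spread between these libraries. No molecular identifiers were used, so errors from counting alone are a lower limit. The exact two-sided permutation test used the difference of means of log2(CPM + 1) over 35 splits. TPM used the union of GENCODE M21 exons, with the longest transcript as alternative. Other alternatives were DESeq2 (1.42.0), limma-voom (3.58.1), other scalings and filters, Xist as covariate and leaving out each library.

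The members, gene lists and tests were chosen with earlier results of these data known, and the motifs after values had been seen. Named are all members, Aqp5, Mip and Aqp9, and Hes1. From each list, the called genes and the largest change at a mean CPM of at least 1 are named. The 5 genes most like each of Aqp2, Aqp6 and Aqp7 are also named, with the neighbours of Aqp2 to Aqp6. Other list genes named were picked for their role or their values. The level of Aqp12, and the coordinates and promoter sequence of Aqp4, were not analysed here. RefSeq promoter windows were matched by symbol for the 7 other members.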

Additional observations from a re-analysis of the deposited data

How the results depend on the processing

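The direction of Aqp1, Aqp2, Aqp3, Aqp4 and Aqp6 was the same in all 14 alternatives. For the uncalled Aqp7 it turned with scaling by total counts (log2 fold change 0.00), without Hes1 cKO 3 (0.06) and without control 1 (0.04), and for Aqp11 without Hes1 cKO 1 (0.00). DESeq2's test called Aqp2 (-0.78), Aqp3 (-0.53) and Aqp6 (0.69), 3 aquaporins in all, and 130 genes of all tested against 53. Without a low-count filter edgeR called Aqp2 (-0.79) and Aqp6 (0.68), 2 aquaporins, and 102 genes of all tested. With the Xist covariate it called 1 aquaporin, Aqp6 (0.73). Leaving out 1 library gave 0 to 1 aquaporins called (Aqp6 without control 3) and 25 to 47 genes of all tested, 27 without Hes1 cKO 1 and 25 without Hes1 cKO 2, with fewer libraries to test. The ranges of log2 fold changes when a library was left out were 0.02 to 0.15 (Aqp1), -1.07 to -0.60 (Aqp2), -0.64 to -0.42 (Aqp3), -0.64 to -0.18 (Aqp4), 0.60 to 0.77 (Aqp6), -0.06 to 0.06 (Aqp7) and -0.18 to 0.00 (Aqp11). For Aqp2 the value farthest from 0 was without Hes1 cKO 3. The order of levels per length was the same with the longest transcript. No paired analysis was possible because the labels name no pairs of Hes1 cKO and control animals. The cause of a change was not tested. Depth limits Aqp8, Aqp9 and Mip.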

Other observations

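Aqp4 was highest in the 3 libraries with high Xist, at 88.9 to 102 CPM, against 51.6 to 77.2 CPM in the other 4. After this was seen, the Xist term of the fit with genotype and log2 Xist was read across all genes. It was called for Aqp4 (log2 change of 0.62 over 8 doublings of Xist, edgeR adjusted p 0.0397), as for 1.34% of all tested genes. It was not called for the 6 other tested members, such as Aqp2 (0.53, edgeR adjusted p 0.114) and Aqp7 (-0.17, 0.453). Slc7a13, a transporter of the late proximal tubule known to be higher in male mice, had the opposite sign (-3.84, edgeR adjusted p 3.72e-07). It was at 14.2, 24.1 and 25.7 CPM in the 3 libraries with high Xist and at 198 to 404 CPM in the others. Ddx3y, a gene of the Y chromosome, had 0, 0 and 1 reads in the 3 libraries with high Xist and 661 to 1249 reads in the other 4. High Xist with almost no Ddx3y reads is the pattern of females, and the reverse that of males. The labels tie no sex to a column, and the 3 high-Xist libraries hold 1 Hes1 cKO and 2 control.

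Cryab, a small heat shock protein of the renal medulla, was at 101 to 117 CPM in Hes1 cKO and 136 to 193 CPM in control. Its groups did not overlap, lower in Hes1 cKO as for 3.29% of all genes. For Cryab the log2 fold change was -0.57 (edgeR adjusted p 0.184, DESeq2 0.00287). Slc14a2, the urea transporter of thin limbs and inner medullary collecting duct, overlapped (51.9 to 91.9 against 41.0 to 102 CPM, log2 fold change -0.04). Emcn, an endothelial surface protein, was at 19.1 to 26.8 CPM in Hes1 cKO and 28.8 to 35.8 CPM in control, with an edgeR adjusted p of 0.512.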
